A study of Homo sapiens with 6 samples.

Results

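The genes described here are 39 genes of homologous recombination and of the Fanconi anemia pathway, taken from a list of symbols and found by Ensembl ID in a count table of 60617 genes. All 39 had 1 row in the table, and all 39 were among the 18505 genes with enough counts to be tested, with at least 50 counts of each member in every library. The cells were A549, an established line of human lung cancer, and the study compared wild-type cells with cells of the same line carrying a YTHDF1 knockout. YTHDF1 is a reader protein that binds N6-methyladenosine in messenger RNA. There were 3 libraries per genotype, labelled as biological replicates, and no treatment or time point separates them. Whether the knockout is 1 clone or a pool, and whether replicates were separate cultures, is unknown here, so p-values measure the spread among these libraries, which may be technical.

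Homologous recombination repairs breaks in both DNA strands by copying an intact sister. The MRE11-RAD50-NBN complex detects the ends, nucleases resect them, and BRCA1, PALB2, BRCA2 and a set of cofactors prepare the exposed strand for exchange with the sister. The Fanconi proteins act at crosslinks between the DNA strands: a multi-subunit core complex attaches ubiquitin to FANCD2 and FANCI, and nucleases and recombination then finish the repair. Many of these genes are transcribed mainly in S and G2 phase of dividing cells, and several of their products are known to limit R-loops, the RNA-DNA hybrids named in the title of the series.

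Library totals lay between 27238817 and 40675628 counts. Levels are given as CPM, the usual library-size unit of RNA-seq, computed by edgeR with TMM scaling factors, and 3 counts in a library correspond to between 0.0735 and 0.111 CPM. YTHDF1 itself lay between 96.4 and 104 CPM in wild type and between 47.1 and 48.6 CPM in knockout, so its RNA was lower and still present. Among markers of the line, the keratin genes KRT8, KRT18 and KRT7 had their lowest value at 473.7 CPM (KRT18 in wild-type replicate 3). The keratin gene KRT19 was lower, between 51.0 and 77.6 CPM over all libraries, and EPCAM was at 2.56 CPM or less. Of the 11 markers listed, 6 rose and 2 fell, with CDH1 going from 10.0 ± 1.69 to 34.0 ± 0.602 CPM and AKR1B10 from 1005 ± 49.7 to 482 ± 36.2 CPM. Of 10 markers of leukocytes, endothelium and fibroblasts, 6 were too low to be tested, CD3E had 0 counts throughout, and the summed level of the 10 lay between 40.6 and 46.3 CPM in wild-type and between 44.2 and 48.5 CPM in knockout libraries. Most of that sum was COL1A1, which rose from 29.8 ± 2.42 to 41.9 ± 1.93 CPM, while CD14 fell from 11.1 ± 0.243 to 3.45 ± 0.537 CPM and PDGFRB fell from 1.34 ± 0.323 to 0.124 ± 0.124 CPM. The part of these marker changes in the results on the members was not tested. Mitochondrially encoded mRNAs, a sign of RNA quality, took 5.76% to 5.92% of counts in wild-type and 3.72% to 3.98% in knockout libraries; the part of this difference in the results below was not tested. Means are given ± SD over 3 libraries.

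Most of the members changed, and more fell than rose. Each member was tested with edgeR's quasi-likelihood test, and p-values were adjusted over all genes tested by the Benjamini-Hochberg method. Of the 39, 22 fell and 8 rose in the knockout libraries at an adjusted p under 0.05, and 9 did not pass. Over all genes tested, 53.5% passed, 26.3% as lower and 27.2% as higher, against 76.9% of the members. The median log2 fold change, knockout minus wild type, was -0.31 over the members and 0.0011 over all genes tested. The median log2 fold change was -0.48 among the 22 members that fell and -0.48 among all genes that fell, and 11 of the 22 fell by more than the latter. BLM and FANCB fell by more than 2-fold, or 2 of 39 beside 4.44% of all genes tested, and 0 members rose by that much beside 7.95%. Wild-type and knockout libraries did not overlap for 31 members (79.5%), compared with 58.9% of all genes tested. The members, and the gene lists used below, were chosen with earlier results of these data known, so these shares are a description.

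**Figure D1:**
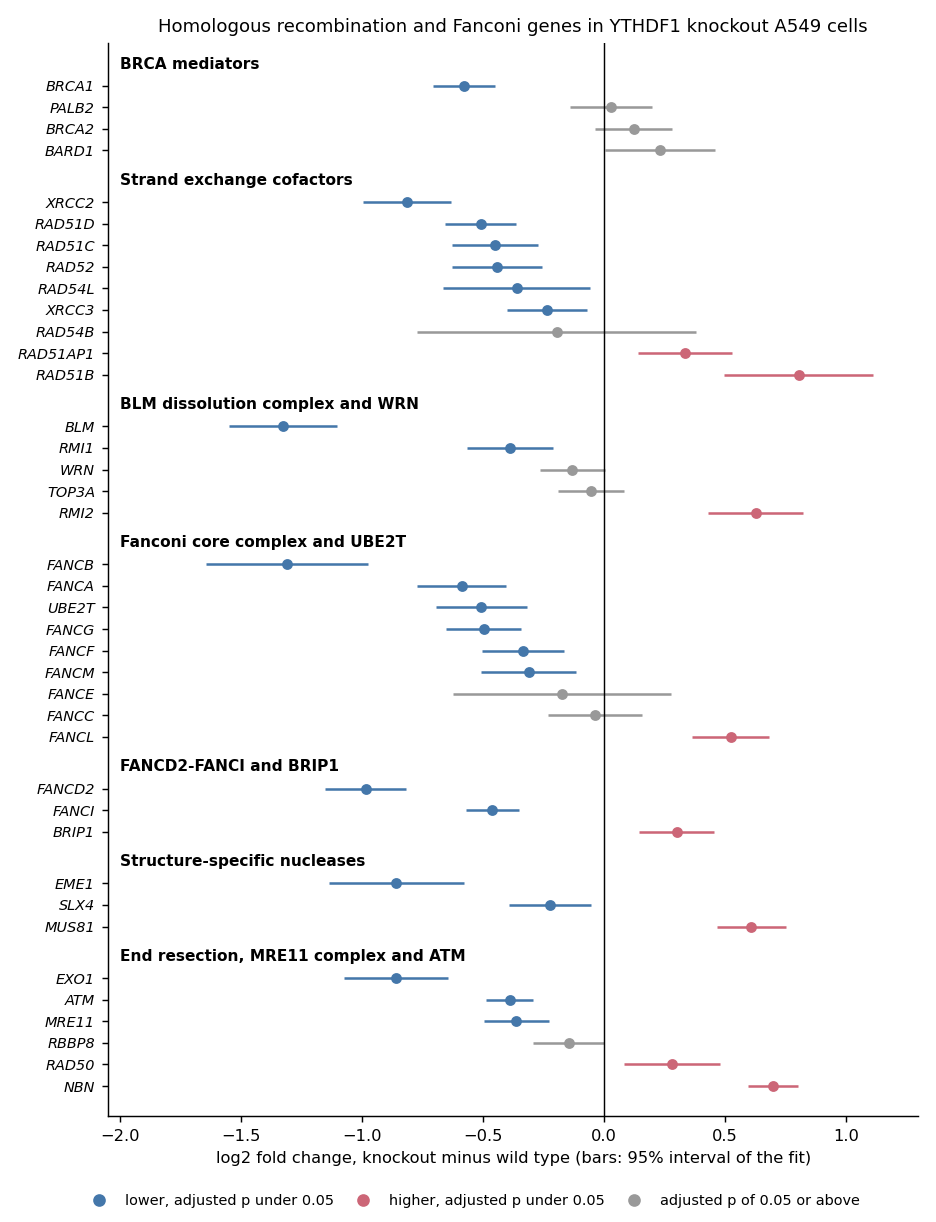
Log2 fold change of each of the 39 members, knockout minus wild type, on the horizontal axis, with members grouped by role and bars for the 95% interval of the fit. Blue points fell (22), red points rose (8) and grey points did not pass (9); every role except the BRCA mediators holds members on both sides of 0 that passed.

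Falling and rising members stood side by side within the same protein complexes. BLM fell while its partner RMI2 rose, EME1 fell while its partner MUS81 rose, MRE11 fell while NBN and RAD50 rose, and FANCL was the member of the Fanconi core complex that rose. Among listed cell division genes, nearly all fell. Of 18 listed targets of E2F factors at the G1/S boundary, 17 fell, among them MCM6, TK1, UHRF1 and MCM5, and 0 rose, with a median of -0.83, and their summed level went from between 1100 and 1220 CPM in wild-type to between 579.5 and 661 CPM in knockout libraries. Of 20 listed G2/M genes, 19 fell, among them TOP2A, MKI67, BIRC5 and KIF23, and 0 rose, with a median of -0.98. In bulk RNA, fewer cells in S and G2 phase and less RNA per cell cannot be told apart, and the part of either in the falls of the members was not tested.

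E2F factors are known to drive many genes of DNA replication and repair. Promoter windows of the members were taken from RefSeq on GRCh38.p14, reaching from 250 bases before to 50 bases after an annotated start. Windows were found for 34 of the 39 members. The windows are shown for the 4 members with the largest falls, since they differ in the exact matches they hold. FANCD2 (chr3:10026187-10026486, plus strand) and EXO1 (chr1:241847954-241848253, plus strand) hold an E2F match beside the start, BLM (chr15:90717096-90717395, plus strand) holds 3 CCAAT boxes and no E2F match, and FANCB (chrX:14873020-14873319, minus strand) holds no match. Each is printed from 5′ to 3′ with matches to the searched motifs in capitals, except that FANCB has none.
FANCD2: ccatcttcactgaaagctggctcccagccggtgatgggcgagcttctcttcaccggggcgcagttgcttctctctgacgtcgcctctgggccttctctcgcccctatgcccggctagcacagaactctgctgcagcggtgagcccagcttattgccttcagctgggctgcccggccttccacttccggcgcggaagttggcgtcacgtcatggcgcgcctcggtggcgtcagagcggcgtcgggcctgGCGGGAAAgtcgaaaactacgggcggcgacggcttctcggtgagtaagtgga
EXO1: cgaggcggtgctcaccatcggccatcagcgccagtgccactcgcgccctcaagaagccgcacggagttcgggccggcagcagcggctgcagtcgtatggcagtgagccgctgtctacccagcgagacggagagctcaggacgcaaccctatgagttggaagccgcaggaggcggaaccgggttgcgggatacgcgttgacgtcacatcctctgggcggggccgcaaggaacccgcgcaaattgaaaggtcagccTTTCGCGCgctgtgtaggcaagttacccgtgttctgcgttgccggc
BLM: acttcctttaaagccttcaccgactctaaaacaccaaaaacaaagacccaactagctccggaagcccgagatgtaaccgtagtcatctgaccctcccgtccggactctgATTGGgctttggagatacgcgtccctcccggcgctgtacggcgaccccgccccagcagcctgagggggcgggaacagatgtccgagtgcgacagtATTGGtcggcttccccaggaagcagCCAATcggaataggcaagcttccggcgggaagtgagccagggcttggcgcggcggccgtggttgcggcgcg
FANCB: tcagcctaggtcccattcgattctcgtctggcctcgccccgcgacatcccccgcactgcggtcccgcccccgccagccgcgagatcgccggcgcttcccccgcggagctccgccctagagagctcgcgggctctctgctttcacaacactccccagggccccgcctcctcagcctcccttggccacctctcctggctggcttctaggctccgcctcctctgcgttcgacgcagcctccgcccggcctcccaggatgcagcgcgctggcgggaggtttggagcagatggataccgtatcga

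The search covered both strands with E2F as TTTCCCGC, TTTCGCGC, TTTGCCGC or TTTGGCGC, the cell cycle element CHR as TTTGAA or TTCGAA, the CCAAT box as CCAAT, and the core of the interferon response element as GAAA repeated after any 2 bases. None of these motifs is part of another. An E2F match was in 5 of 21 windows of members that fell (23.8%), in 0 of 6 of members that rose and in 1 of 7 of the others, compared with 3.30% of the windows of 27305 genes. The 5 were XRCC2, RMI1, FANCA, FANCD2 and EXO1, and the other was FANCC. Among the listed G1/S targets, 10 of 15 windows held one (66.7%). CHR matches were in 2 of the 21 windows, or 9.52%, and in 16.5% of all genes, while 12 of 16 windows of the G2/M genes held one. CCAAT boxes were in 10 of the 21 (47.6%), in 3 of the 6 of members that rose and in 1 of the 7 others, and in 35.8% of all genes. The interferon element was in 0 of 34 member windows and in 3.64% of all genes. No window is shown for RAD51B and MUS81, which rose, because their RefSeq starts lie 3762 and 3307 bases inside the genes as GENCODE 29 draws them, and both are among the 6 windows counted for members that rose. A match is an exact run of letters and does not show binding, and near matches were not counted.

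The genes that detect and resect DNA ends went in both directions. NBN (ENSG00000104320, chromosome 8, 89933336 to 90003228, minus strand) encodes the subunit of the MRE11 complex that recruits ATM. It was at 76.9, 74.5 and 80.2 CPM in wild type against 120.4, 123 and 132 CPM in knockout. NBN rose by 0.70 on the log2 scale (SE 0.0502, adjusted p 9.12e-14), and all 3 knockout libraries lay above all 3 wild-type libraries. MRE11 (ENSG00000020922, chromosome 11, 94415578 to 94493908, minus strand), the nuclease of the complex, moved the other way, with 42.9, 47.4 and 46.8 CPM in wild type against 35.3, 33.9 and 37.5 CPM in knockout. MRE11 fell by 0.36 (SE 0.0654, adjusted p 1.78e-05), with no overlap between the groups. RAD50, the ATPase that tethers the ends, was at 13.5, 12.3 and 12.5 CPM in wild type against 15.5, 14.3 and 16.7 CPM in knockout. RAD50 rose by 0.28 (adjusted p 0.0153), but without knockout replicate 3 the adjusted p was 0.0935. In GENCODE 29, 79.7% of the exonic bases of RAD50 are also assigned to AC116366.3 on the same strand, a gene with 0 counts in every library, so the level of RAD50 is uncertain.

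ATM (ENSG00000149311, chromosome 11, 108222484 to 108369102, plus strand), the kinase that signals breaks, had the highest mean CPM of the members in wild-type cells, with 128, 129.6 and 132 CPM in wild type against 97.8, 96.2 and 104 CPM in knockout. ATM fell by 0.39 (SE 0.0471, adjusted p 1.42e-08), and the highest knockout library stayed below the lowest wild-type library. EXO1 (ENSG00000174371, chromosome 1, 241847967 to 241895148, plus strand), the exonuclease of long-range resection whose promoter is shown above, was at 19.8, 25.3 and 19.4 CPM in wild type against 11.8, 10.3 and 13.2 CPM in knockout. It fell by 0.86 (SE 0.106, adjusted p 2.06e-08), with wild-type replicate 2 the highest of its group. RBBP8 encodes CtIP, which starts resection together with MRE11. Its mean went from 31.8 ± 1.16 to 28.8 ± 1.88 CPM, a log2 fold change of -0.15 (95% interval -0.29 to 0.0013, adjusted p 0.0897), and the libraries did not overlap although the test was not passed.

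Of the 4 BRCA mediators, BRCA1 was the member that passed the test. BRCA1 (ENSG00000012048, chromosome 17, 43044295 to 43170245, minus strand) forms a ubiquitin ligase with BARD1 and brings PALB2 and BRCA2 to the break. BRCA1 was at 66.4, 67.5 and 65.1 CPM in wild type against 44.5, 40.1 and 48.7 CPM in knockout. It fell by 0.58 (SE 0.0623, adjusted p 1.3e-09), and every knockout library lay below every wild-type library. BRCA2 (ENSG00000139618, chromosome 13, 32315474 to 32400266, plus strand), which acts on the resected strand, was at 26.0, 25.3 and 25.4 CPM in wild type against 27.8, 25.1 and 30.7 CPM in knockout. The groups overlapped, and the log2 fold change of 0.12 had a 95% interval of -0.04 to 0.28 (adjusted p 0.19). The log2 fold change of BRCA2 was 0.051 without knockout replicate 3 and 0.20 without knockout replicate 2 (adjusted p 0.0545). PALB2, the bridge between BRCA1 and BRCA2, was at 26.9, 29.8 and 26.2 CPM in wild type against 26.5, 25.6 and 32.3 CPM in knockout, with an interval of -0.14 to 0.20 around 0.03 and an adjusted p of 0.785. BARD1 was at 9.15, 12.2 and 11.8 CPM in wild type against 12.1, 12.9 and 13.7 CPM in knockout, with an interval of 0.0046 to 0.46 around 0.23 and an adjusted p of 0.0802. Wild-type replicate 1 was the lowest BARD1 library. Without wild-type replicate 2, BARD1 passed, with an adjusted p of 0.0398, whereas without wild-type replicate 1 its log2 fold change was 0.11 (adjusted p 0.464).

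Among the cofactors of strand exchange, 6 of 9 fell and 2 rose. RAD51B, RAD51C, RAD51D, XRCC2 and XRCC3 work together in small complexes on DNA, and these 5 genes did not move together. XRCC2 (ENSG00000196584, chromosome 7, 152644779 to 152676165, minus strand) was at 23.0, 26.6 and 23.6 CPM in wild type against 13.1, 13.3 and 15.2 CPM in knockout. It fell by 0.81 (SE 0.0894, adjusted p 2.04e-09), the largest fall of this role. RAD51D, which binds XRCC2 directly, was at 32.3, 32.1 and 34.7 CPM in wild type against 23.4, 23.0 and 23.3 CPM in knockout and fell by 0.51 (SE 0.0719, adjusted p 3.07e-07). RAD51C, a subunit of more than 1 of these complexes, was at 20.2, 21.0 and 19.96 CPM in wild type against 14.3, 14.5 and 15.8 CPM in knockout and fell by 0.45 (SE 0.087, adjusted p 4.48e-05). In all 3 genes the groups were separate.

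RAD51B (ENSG00000182185, chromosome 14, 67819779 to 68730218, plus strand), the partner of RAD51C, went against these 3. It was at 4.04, 5.34 and 5.49 CPM in wild type against 7.21, 10.4 and 8.28 CPM in knockout. RAD51B rose by 0.81 (SE 0.151, adjusted p 3.06e-05), the largest rise of any member, from a low level at which its libraries spread widely, with knockout replicate 2 the highest. RAD51AP1, which stimulates strand pairing, was at 14.8, 15.8 and 14.2 CPM in wild type against 19.0, 16.5 and 21.1 CPM in knockout. RAD51AP1 rose by 0.34 (adjusted p 0.00333), and its lowest knockout library was just above its highest wild-type library. RAD52, an annealing protein, fell by 0.44 from 20.4 ± 2.14 to 15.1 ± 0.735 CPM (adjusted p 0.000108).

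Among the remaining genes of this role, XRCC3 and RAD54L lost their calls in some alternatives and RAD54B did not pass. XRCC3, the partner of RAD51C in another complex, fell by 0.24 from 23.0 ± 1.45 to 19.5 ± 0.552 CPM (adjusted p 0.0147), but the adjusted p was 0.0634 without wild-type replicate 2 and 0.0583 without knockout replicate 3. In GENCODE 29, 76.7% of the exonic bases of XRCC3 lie opposite exons of KLC1, whose level was 50.7 ± 0.818 CPM in wild-type and 54.7 ± 1.01 CPM in knockout libraries, and how the counting treated strand is not known here. RAD54L, a motor protein that drives strand exchange, fell by 0.36 from 6.08 ± 0.628 to 4.74 ± 0.362 CPM (adjusted p 0.0421). The call of RAD54L was lost without wild-type replicate 1 (adjusted p 0.189), without knockout replicate 1 (0.0749) and without knockout replicate 2 (0.149). It was also lost in DESeq2, with an adjusted p of 0.0526, and 25.1% of its exonic bases lie opposite LRRC41, which rose by 0.43. RAD54B, its paralog, had the lowest level of the members and went from 2.07 ± 0.825 to 1.82 ± 0.497 CPM, with a 95% interval of -0.77 to 0.38 around -0.20 (adjusted p 0.596), and 59.1% of its exonic bases shared with FSBP on the same strand.

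**Figure D2:**
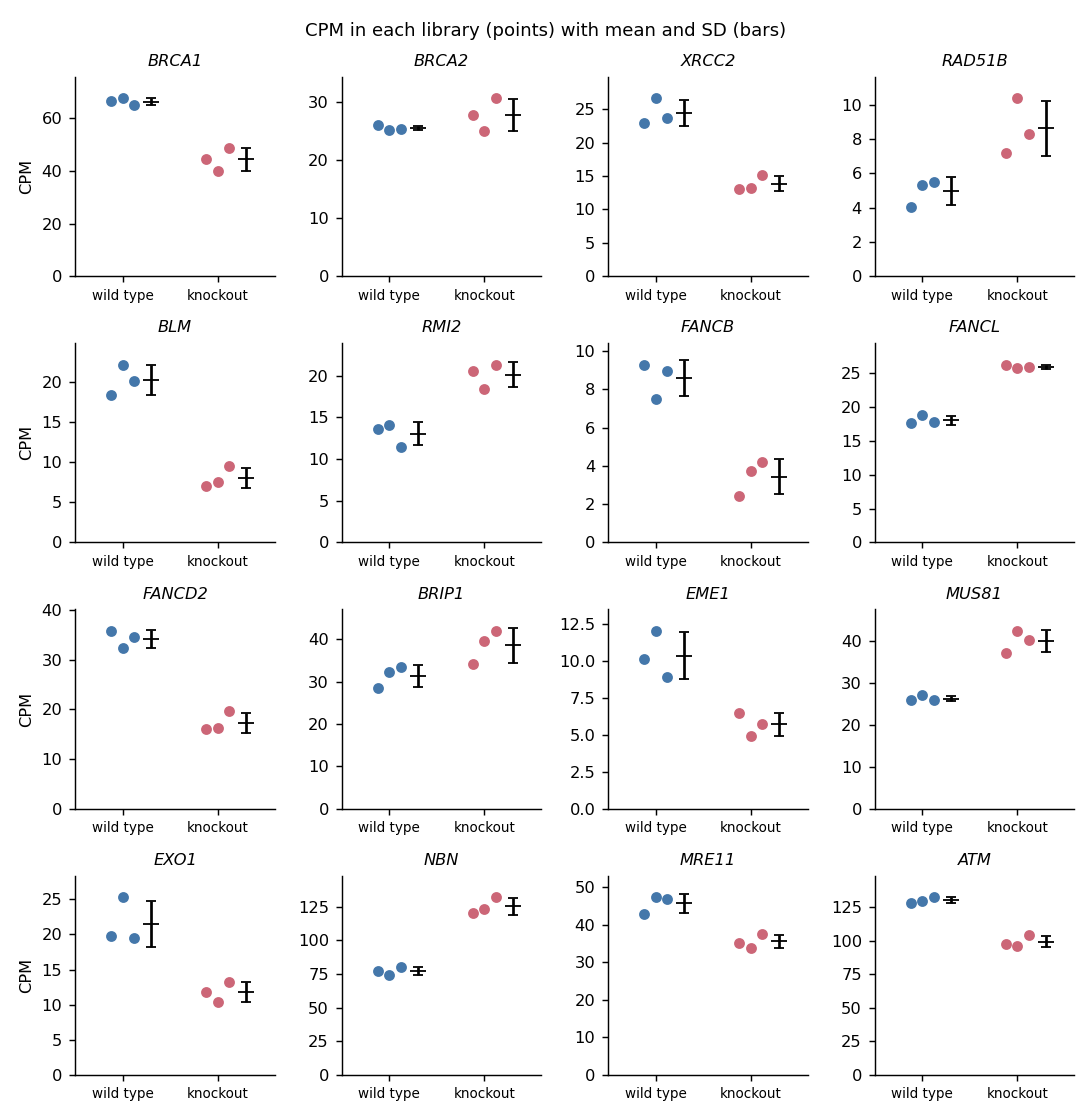
CPM of 16 members in each library, with wild-type points in blue, knockout points in red, and the mean and SD of 3 libraries as bars on axes that start at 0. BRCA1, XRCC2, BLM, FANCB, FANCD2, EME1, EXO1, MRE11 and ATM were lower in every knockout library, RAD51B, RMI2, FANCL, BRIP1, MUS81 and NBN were higher, and BRCA2 overlapped.

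The complex that dissolves double Holliday junctions, made of the helicase BLM, the topoisomerase TOP3A and the scaffolds RMI1 and RMI2, split in 3 ways. BLM (ENSG00000197299, chromosome 15, 90717327 to 90816165, plus strand) was at 18.5, 22.2 and 20.2 CPM in wild type against 7.09, 7.52 and 9.53 CPM in knockout. BLM fell by 1.33 (SE 0.11, adjusted p 3.22e-12), the largest fall of the 39, with all knockout libraries below all wild-type libraries. RMI1 was at 21.9, 22.8 and 20.2 CPM in wild type against 17.1, 15.1 and 17.3 CPM in knockout and fell by 0.39 (SE 0.087, adjusted p 0.000293). RMI2 (ENSG00000175643, chromosome 16, 11249619 to 11381662, plus strand) was at 13.6, 14.1 and 11.5 CPM in wild type against 20.6, 18.5 and 21.3 CPM in knockout. RMI2 rose by 0.63 (SE 0.096, adjusted p 1.23e-06), again with no overlap. TOP3A did not pass (adjusted p 0.536) and went from 33.7 ± 1.07 to 32.4 ± 0.767 CPM, with a 95% interval of -0.19 to 0.08 around -0.05. WRN, a related helicase that works outside this complex, was at 35.6, 35.1 and 37.6 CPM in wild type against 33.4, 32.8 and 32.9 CPM in knockout. Its groups were separate, but the log2 fold change of -0.13 had an adjusted p of 0.0989.

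Nucleases that cut branched DNA also split. MUS81 (ENSG00000172732, chromosome 11, 65857126 to 65867653, plus strand), the catalytic subunit, was at 25.8, 26.9 and 25.9 CPM in wild type against 37.2, 42.3 and 40.2 CPM in knockout. MUS81 rose by 0.61 (SE 0.07, adjusted p 4.99e-09). EME1 (ENSG00000154920, chromosome 17, 50373220 to 50381483, plus strand), the non-catalytic partner of MUS81 in mitosis, was at 10.1, 12.1 and 8.94 CPM in wild type against 6.50, 4.90 and 5.75 CPM in knockout and fell by 0.86 (SE 0.137, adjusted p 2.52e-06). The groups of each of the 2 genes were separate, in opposite directions. EME2, the other partner of MUS81 and not one of the 39, was at 20.9, 19.9 and 19.8 CPM in wild type against 34.5, 31.7 and 32.2 CPM in knockout and rose by 0.70 (adjusted p 1.01e-09), with part of its exons opposite SPSB3. SLX4, the scaffold that holds MUS81 and other nucleases, was at 29.8, 27.6 and 23.8 CPM in wild type against 24.1, 23.7 and 21.9 CPM in knockout. SLX4 fell by 0.22 (adjusted p 0.0231) with overlapping groups, and the adjusted p was 0.196 without wild-type replicate 1, 0.0526 without wild-type replicate 2 and 0.119 without knockout replicate 3.

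In the Fanconi core complex with its ubiquitin-conjugating enzyme UBE2T, 6 of 9 fell and 1 rose. FANCB (ENSG00000181544, chromosome X, 14835961 to 14873069, minus strand), which supports the catalytic module of the complex, was at 9.28, 7.495 and 8.94 CPM in wild type against 2.42, 3.73 and 4.18 CPM in knockout. FANCB fell by 1.31 (SE 0.164, adjusted p 2.96e-08), with knockout replicate 1 the lowest. FANCL (ENSG00000115392, chromosome 2, 58159243 to 58241372, minus strand), the ubiquitin ligase subunit, was at 17.6, 18.8 and 17.8 CPM in wild type against 26.3, 25.7 and 25.9 CPM in knockout. It rose by 0.52 (SE 0.0784, adjusted p 8.34e-07), and the spread among its knockout libraries was under 1 CPM. Of the exonic bases of FANCL, 19.7% lie opposite AC007250.1 and VRK2, and how the counting treated strand is not known here. UBE2T, the ubiquitin-conjugating enzyme that works with FANCL, went the other way and fell by 0.51 from 23.4 ± 1.14 to 16.5 ± 2.33 CPM (adjusted p 1.94e-05). In each of the 3 genes the groups were separate.

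The other subunits of the core complex fell or did not pass. FANCA was at 27.4, 30.8 and 30.2 CPM in wild type against 20.002, 16.4 and 22.4 CPM in knockout and fell by 0.59 (SE 0.0898, adjusted p 1.19e-06). Of the exonic bases of FANCA, 23.6% lie opposite ZNF276, which was at 21.6 ± 0.729 CPM in wild-type and 22.6 ± 0.231 CPM in knockout libraries. FANCG, which binds FANCA, was at 30.3, 27.7 and 29.9 CPM in wild type against 20.3, 20.2 and 21.8 CPM in knockout and fell by 0.50 (SE 0.0761, adjusted p 1.22e-06). FANCF, an adaptor, fell by 0.34 from 21.1 ± 0.339 to 16.7 ± 0.508 CPM (adjusted p 0.000917). FANCM, the translocase that anchors the complex to DNA, fell by 0.31 from 16.2 ± 1.28 to 13.1 ± 0.855 CPM (adjusted p 0.00706, or 0.0702 without wild-type replicate 3). FANCC went from 15.9 ± 1.33 to 15.5 ± 1.26 CPM, with a 95% interval of -0.23 to 0.16 around -0.04 (adjusted p 0.769). FANCE, which contacts FANCD2, went from 3.26 ± 0.839 to 2.86 ± 0.695 CPM, and its 95% interval of -0.62 to 0.28 spans 0 widely (adjusted p 0.541).

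The substrates of the core complex both fell. FANCD2 (ENSG00000144554, chromosome 3, 10026414 to 10101930, plus strand) was at 35.8, 32.2 and 34.6 CPM in wild type against 16.1, 16.2 and 19.6 CPM in knockout. It fell by 0.98 (SE 0.0824, adjusted p 4.1e-12), a 1.98-fold change. FANCI (ENSG00000140525, chromosome 15, 89243949 to 89317261, plus strand), its partner in the clamp that closes around DNA, was at 116, 116 and 109 CPM in wild type against 81.9, 76.7 and 89.0 CPM in knockout and fell by 0.46 (SE 0.053, adjusted p 5.34e-09). For both genes the highest knockout library was below the lowest wild-type library. BRIP1 (ENSG00000136492, chromosome 17, 61681266 to 61863521, minus strand), also called FANCJ, is a helicase that binds BRCA1 and lies on the same chromosome as BRCA1. It was at 28.5, 32.2 and 33.5 CPM in wild type against 34.1, 39.7 and 42.0 CPM in knockout. BRIP1 rose by 0.30 (SE 0.0766, adjusted p 0.00119), with the lowest knockout library just above the highest wild-type library.

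**Figure D3:**
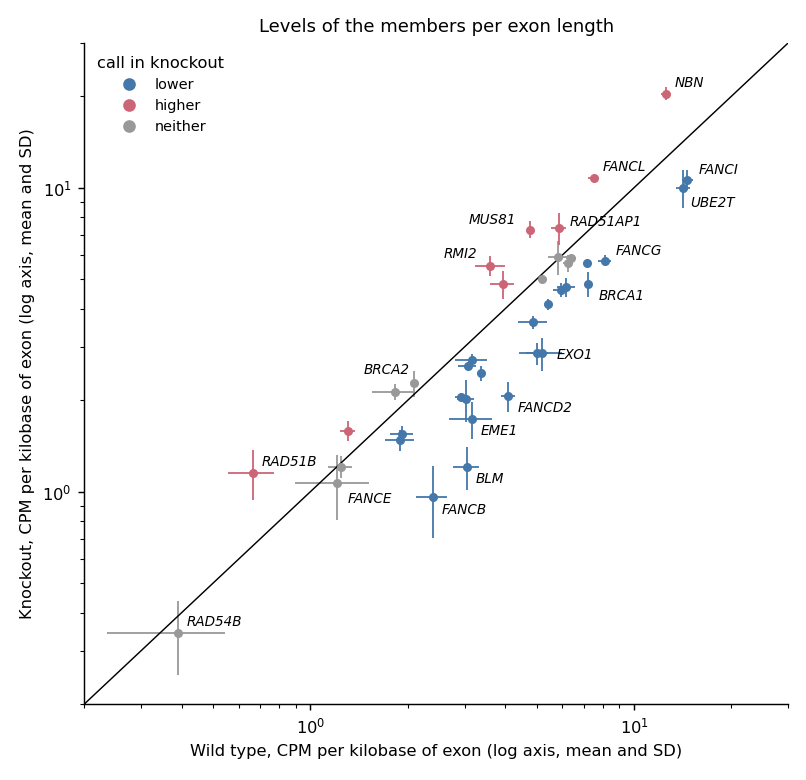
Mean level of each member in wild-type (horizontal) and knockout (vertical) libraries, as CPM per kilobase of exon on log axes, with SD of 3 libraries as bars and a line of equal level. NBN moved from below FANCI and UBE2T to above them, while BLM and FANCB lie furthest below the line.

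Levels between genes were compared as CPM per kilobase of exon, the union of exons in GENCODE 29. FANCI was highest in the wild-type libraries, at 14.6 ± 0.538, followed by UBE2T at 14.2 ± 0.690 and NBN at 12.5 ± 0.459 CPM per kilobase (SD, n = 3). FANCI and UBE2T did not differ beyond their spread, whereas NBN was below both and well above FANCG, the next gene, at 8.11 ± 0.385. RAD54B at 0.390 ± 0.155, RAD51B at 0.663 ± 0.107 and FANCE at 1.21 ± 0.312 were lowest. FANCE did not differ from FANCC, at 1.24 ± 0.104, beyond their spread. RAD54B shares 59.1% of its exonic bases with FSBP on the same strand, so its level is uncertain. Of the 38 pairs of neighbours in this order, 9 differed by more than their summed SD, so most of the order between is not resolved. In the knockout libraries NBN was highest, at 20.4 ± 1.00 CPM per kilobase. Next came FANCL at 10.8 ± 0.117, FANCI at 10.6 ± 0.793 and UBE2T at 10.0 ± 1.41, which did not differ beyond their spread. BLM went from place 27 to place 35 and FANCB from place 30 to place 38 of 39. Across the 39 genes, the log2 fold change had a Spearman correlation of -0.091 with the wild-type level per kilobase and of 0.00081 with exon length, as a description of genes that share the same libraries.

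Ratios of partners within a library do not depend on the scaling between libraries. The pairs were chosen after their values were seen, so the ratios are a description. Counts of MUS81 per exonic base, divided by those of EME1, were 1.53, 1.34 and 1.74 in wild type against 3.44, 5.19 and 4.20 in knockout, a 2.78-fold higher mean. The same ratio of RMI2 to BLM was 1.35, 1.17 and 1.05 in wild type against 5.33, 4.51 and 4.11 in knockout, 3.91-fold higher. NBN stood to MRE11 at 2.24, 1.96 and 2.14 in wild type against 4.26, 4.55 and 4.40 in knockout, 2.08-fold higher. The ratio of BARD1 to BRCA1 was 0.209, 0.273 and 0.274 in wild type against 0.412, 0.488 and 0.425 in knockout, and FANCI to FANCD2 was 3.50, 3.88 and 3.39 in wild type against 5.50, 5.11 and 4.90 in knockout. In each of these 5 ratios the groups were separate. Against EME2, MUS81 stood at 1.56, 1.71 and 1.65 in wild type against 1.36, 1.69 and 1.57 in knockout, and the groups overlapped.

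**Figure D4:**
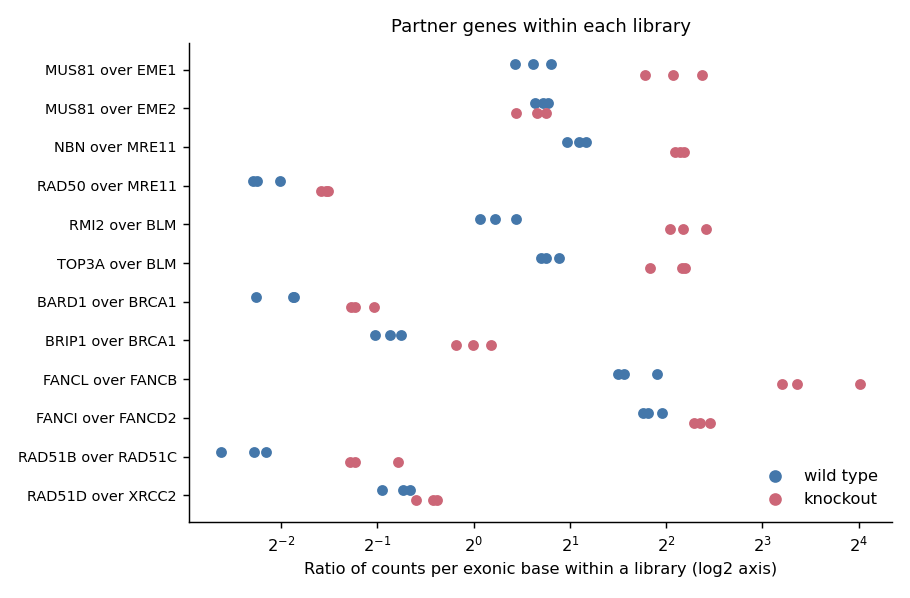
Ratio of counts per exonic base of partner genes within each library, on a log2 axis, with wild-type libraries in blue and knockout libraries in red. The groups are separate for 11 of the 12 ratios and overlap for MUS81 over EME2. The pairs were chosen after their values were seen, so this count is a description. For levels of single genes, the groups did not overlap in 58.9% of all genes tested.

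Other genes of the same pathways fell more often than they rose. Of 53 listed, 51 were tested, 28 fell and 7 rose, or 68.6% in either direction beside 53.5% of all genes. Among the 35 tested for homologous recombination, 20 fell and 4 rose. MMS22L, which acts at stalled forks, fell by 1.02 from 26.7 ± 2.58 to 13.1 ± 1.25 CPM (adjusted p 2.05e-11). PARPBP, which limits recombination, fell by 1.00 from 19.4 ± 0.541 to 9.72 ± 1.13 CPM (adjusted p 2.63e-10). RPA1, the large subunit of the protein that coats single-stranded DNA, rose by 0.57 from 54.0 ± 3.43 to 80.1 ± 0.887 CPM (adjusted p 1.12e-10), and EME2 above is among the 4 that rose.

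Of 16 further Fanconi genes, 8 fell and 3 rose. REV3L, the catalytic subunit of the translesion polymerase zeta, rose by 0.91 from 28.3 ± 3.02 to 53.0 ± 3.87 CPM (adjusted p 1.61e-12), and DCLRE1B, a nuclease, fell by 0.83 from 11.3 ± 1.51 to 6.33 ± 0.942 CPM (adjusted p 1.97e-06). ERCC1, a partner in the nuclease that unhooks crosslinks, fell by 0.44 (adjusted p 2.28e-07), and CENPX, a binding partner of FANCM, fell by 0.47 (adjusted p 1.75e-05). For comparison, 5 of 15 listed genes of nonhomologous end joining, the other main repair route for breaks, fell and 6 rose, and the median of their log2 fold changes was 0.092. The 4 with the smallest adjusted p, PRKDC, XRCC5, XRCC6 and SHLD2, all fell. Of 16 checkpoint genes, 9 fell, among them H2AX, TOPBP1, TIMELESS and ATR, and 3 rose. Beside these counts, 26.3% of all genes tested fell and 27.2% rose. Whether the members differ from these lists was not tested.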

How the data were processed

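RNA-seq of 3 wild-type and 3 YTHDF1 knockout A549 libraries was read as the table of raw counts per gene that the authors deposited, with 1 column per library named in the labels. Libraries were made with a stranded total RNA kit, per the labels' protocols. The submitters' processing notes name Trim Galore 0.6.6, STAR 2.7.0d, featureCounts 2.0.1, edgeR 3.32.1 and GRCh38. Not given in the sources used here are the annotation, the strand setting and the treatment of reads with several positions. Reads from bases shared between genes may therefore be counted for each of them, for a single gene or for none. The 5 members with over 20% of exonic bases in another gene are marked as uncertain or described with that gene.

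Counts were fitted in edgeR 4.0.16 (R 4.3.3) with filterByExpr, TMM scaling, genotype as the only term and a two-sided quasi-likelihood test, with Benjamini-Hochberg adjustment over 18505 genes and a threshold of 0.05. The fit was tested on simulated counts with far fewer changed genes than passed here, so scaling under changes this widespread was not tested. CPM values are relative to the TMM-scaled library size. Symbols came from the reference gene tables, and coordinates, exon lengths and overlaps from GENCODE 29 (GRCh38). Of the RefSeq promoter windows, the one with most GENCODE transcript starts within 50 bases was used for each member. Levels between genes are per kilobase of exon.

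The members and gene lists were chosen with earlier results of these data known. Values per library are given for up to 4 members of each role with the smallest adjusted p and for every member that rose. From each other pathway or context list, up to 4 genes with the smallest adjusted p are named. For 1 listed pathway gene, which is in the counts, values are not reported here. DESeq2 1.42.0, limma 3.58.1 (voom), other scaling, other filters, a replicate block, a minimum fold of 1.2 and leaving out each library were tried as alternatives.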

Additional observations from a re-analysis of the deposited data

How the results depend on the processing

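Under 14 alternatives, no member that passed the test changed sign. With a fold of 1.2 built into the test, 20 members passed, 5 of them higher, with 10 lost (BRIP1, FANCF, FANCM, MRE11, RAD50, RAD51AP1, RAD54L, RMI1, SLX4 and XRCC3). Under this stricter test 6031 of all genes passed (2817 lower, 3214 higher), as did 21 other pathway genes (17 lower, 4 higher). Leaving out 1 library gave between 27 and 29 members past the threshold. RAD54L was also lost with library size as the only scaling (adjusted p 0.0601) and with no filter (0.0777). Among members that did not pass, the log2 fold change ranged with 1 library left out from -0.079 to 0.099 for PALB2 (-0.0041 without wild-type replicate 3, -0.079 without knockout replicate 3), from -0.43 to 0.18 for RAD54B (0.18 without wild-type replicate 1, 0.023 without knockout replicate 2), from -0.076 to 0.038 for FANCC (0.038 without wild-type replicate 3, 0.027 without knockout replicate 1) and from -0.32 to 0.032 for FANCE (0.032 without wild-type replicate 2, 0.023 without knockout replicate 3). For TOP3A it was -0.031 without wild-type replicate 2 and -0.033 without knockout replicate 1, and for RBBP8 -0.088 without knockout replicate 2. The median over all genes, 0.0011 as reported, was 0.027 with library size as the only scaling. The cause of these changes was not tested.

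Deviations of same-numbered libraries from their group means correlated at -0.026, -0.014 and 0.0079. With 3 libraries per group, this does not show whether same-numbered libraries were handled together. With the replicate block 29 members passed, 21 lower and 8 higher, and RAD54L was lost (adjusted p 0.0553). The intervals of RAD54B (SE 0.283) and FANCE (SE 0.221), members of low level, were the widest. The part of depth in this was not tested.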
